A study of Mus musculus with 6 samples.

Results

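The proteins of the small ribosomal subunit are described here through the transcripts of 33 genes in sorted mouse cones. These genes are the rows of the count table whose symbol is Rps followed by a number, with at most a, a1, x or l after it, or Rpsa. Numbered pseudogene rows (-ps) and the Rps6k kinases do not match this pattern, but Rps4l, which the annotation classes as a transcribed processed pseudogene, does. They are 33 of 46078 rows. Cones that carry the fluorescent protein TN-XL had been sorted for RNA-seq out of retinal explants given trichostatin A (TSA), an inhibitor of histone deacetylases, or its solvent DMSO. The question was which transcripts differ under this inhibition in cones that are otherwise losing their rods and degenerating. Each group held 3 libraries.

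All explants came from the rd1TN-XL mouse. This mouse carries the rd1 defect of Pde6b, a rod gene, so that its rods die early, and expresses the fluorescent calcium sensor TN-XL in cones from a human red opsin promoter. Explants with attached pigment epithelium entered culture at PN19 for 7 days, with 10 nM TSA in the treated group and the same amount of DMSO in the control group. Cells of 2 or more explants, each of another animal, were pooled for a replicate, and 2000 to 5000 sorted cells gave each library. The titles place the harvest of all libraries at PN26. The time point labels name PN29, PN30 and PN31 for TSA replicates 1, 2 and 3 and PN26, PN27 and PN28 for DMSO replicates 1, 2 and 3, and by those labels age and treatment cannot be told apart.

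Totals were 12088800 to 12734097 counts in TSA libraries and 9135389 to 13650676 in DMSO libraries. The 10 cone markers all had counts in every library and summed to 2.97% to 4.98% of counts in TSA libraries and 3.13% to 5.28% in DMSO libraries. Genes over 1 CPM, a count scaled to a library total of 1e+06, numbered 10795, 9100 and 6974 in TSA replicates 1 to 3, against 6838, 8837 and 6690 in DMSO replicates 1 to 3. Müller glia markers held 1.42% of counts in TSA replicate 1 and 0.0719% to 0.126% in the other 5 libraries. Microglia markers held 0.216% in TSA replicate 1 and at most 0.0179% elsewhere. Bipolar cell markers held 0.270% in TSA replicate 1, against 0.0612% to 0.149% elsewhere. Rod markers held 0.894%, 1.44% and 1.09% in TSA replicates 1 to 3, against 1.73%, 1.74% and 1.42% in DMSO replicates 1 to 3, and 3 of the 8 passed the filter. TSA replicate 1 therefore stood apart by transcripts of other cell types, and values without it are given where they matter.

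The small, or 40S, subunit binds the mRNA and reads its codons, while the large, or 60S, subunit joins the amino acids. Most ribosomal protein mRNAs of mammals begin with a cytosine and a run of pyrimidines at the cap, the 5′ terminal oligopyrimidine (TOP) motif, through which mTOR and LARP1 control their translation and stability as a group. A photoreceptor renews its outer segment throughout life and so depends on steady protein synthesis.

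Sequence around the transcript start is shown for 10 of the genes, because this is where the TOP motif lies and because these genes carry many of the values below. Each line has 30 bases of RefSeq's GRCm38.p6 sequence, 10 before the annotated start and 20 from it, read 5′ to 3′ on the strand of the gene. Capitals mark a run of at least 5 pyrimidines, taken from the first suitable C within 5 bases of the start, and lines without capitals hold no such run. The base before that C was not considered. In the Rps9, Rps15a and Rps26 lines it is a t, so the capitals there mark only part of a pyrimidine run that begins with T.
Rps6 (chr4:86857348-86857377, minus strand): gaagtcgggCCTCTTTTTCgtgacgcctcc
Rps10 (chr17:27635225-27635254, minus strand): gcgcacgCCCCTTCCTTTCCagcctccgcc
Rps18 (chr17:33955646-33955675, minus strand): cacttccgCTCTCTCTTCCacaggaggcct
Rps27 (chr3:90213629-90213658, minus strand): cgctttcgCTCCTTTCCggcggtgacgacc
Rps27l (chr9:66946076-66946105, plus strand): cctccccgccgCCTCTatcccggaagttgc
Rps15a (chr7:118116128-118116157, minus strand): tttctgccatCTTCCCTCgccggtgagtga
Rps9 (chr7:3704031-3704060, plus strand): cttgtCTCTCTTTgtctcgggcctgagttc
Rps26 (chr10:128626487-128626516, minus strand): gcaagccgccggatCCTCTTTCgagtcttg
Rps13 (chr7:116334171-116334200, minus strand): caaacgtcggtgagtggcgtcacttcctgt
Rps12 (chr10:23787190-23787219, minus strand): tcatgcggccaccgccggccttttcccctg

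Of the 33 genes, 24 matched a RefSeq promoter, and 12 of these (50.0%) held such a run, against 21.2% of all 27025 genes with a sequence. The longest runs in the lines above are the 13 bases of Rps10, the 11 of Rps18 and the 10 of Rps6. Rps27l, the paralogue of Rps27, has a run of 5 bases where Rps27 has 9. The promoters, taken as 250 bases before to 50 after the start and read on both strands, held CCGGAAG, an ETS-type motif, in 11 of 24 (45.8%), against 9.93% of all genes. The BANP motif, a palindrome of 10 bases around CGCG, stood in 3 (Rps6, Rps19 and Rps28; 12.5%, against 0.525%), and TATAAA in 2 (Rps2 and Rps28; 8.33%, against 15.7%). CACGTG, the E-box bound by Myc, stood in 1 (Rps19; 4.17%, against 8.09%). These letters are a description of the windows, and not of binding or of the starts used in these cones. A gene counted as without a run may therefore still carry a TOP motif. Rps14, Rps20, Rps27a, Rps29 and Rps4l were among those not matched.

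The 33 genes were among the abundant transcripts of these cones, and all 33 passed the filter on low counts that 9621 genes passed in all. Mean levels over the 6 libraries lay between 80.4 and 2309 CPM, scaled by the trimmed mean of M-values (TMM). No member had a 0 count in any library, whereas 37.9% of the genes tested had at least one. With 1 exception, Rps12 in DMSO replicate 3, every value was at least 418 counts. Within groups, the median coefficient of variation of the members was 45.9% in TSA cones and 29.5% in DMSO cones. Over all genes tested it was 83.8% in TSA cones and 94.5% in DMSO cones, and over the 1970 genes at least as abundant as the lowest member it was 44.5% in TSA cones and 55.5% in DMSO cones. The members thus varied less than most genes among DMSO libraries, and about as much as abundant genes among TSA libraries.

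The order of the members was much alike in all libraries. Across the 33 genes, Spearman's rho was 0.79 to 0.91 between a TSA and a DMSO library, 0.88 to 0.91 among TSA libraries and 0.75 to 0.83 among DMSO libraries. For all genes tested it was 0.41 to 0.66 over the same pairs of libraries. The genes of a library share its depth and length bias, so these values describe the libraries only.

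**Figure D1:**
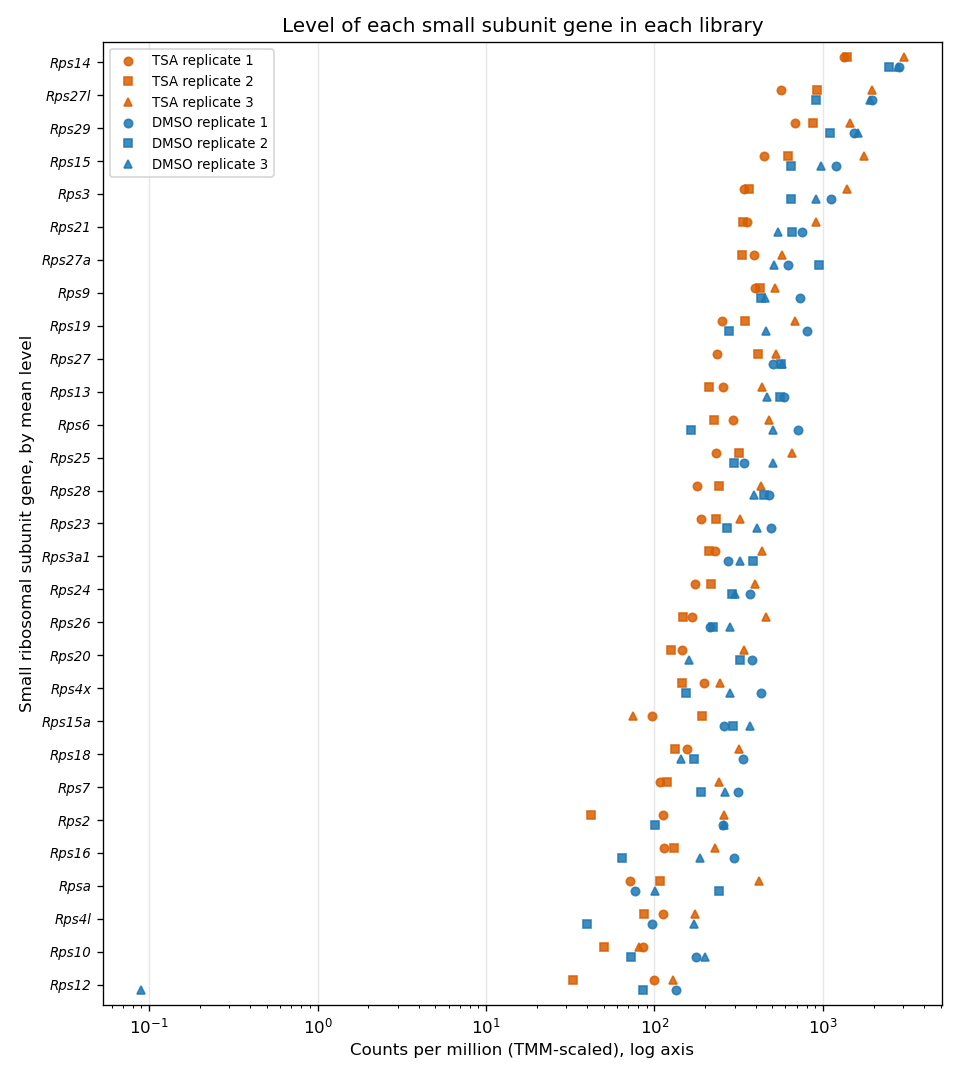
Level of 29 of the 33 genes (rows, by mean level) in each library, in TMM-scaled CPM on a log axis, with TSA libraries in orange and DMSO libraries in blue and 1 symbol for each replicate. TSA replicates 1 and 2 lie at the low end of most rows. TSA replicate 3 lies among or above the DMSO libraries except for Rps13 and Rps15a, where it lies below them. Rps12 falls to 0.0896 CPM in DMSO replicate 3. Gene length is not taken into account.

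The members were first summed in each library. They held 1.04%, 1.12% and 1.89% of counts in TSA replicates 1, 2 and 3, against 1.70%, 1.71% and 1.68% in DMSO replicates 1, 2 and 3. TSA replicates 1 and 2 were below all DMSO libraries and TSA replicate 3 was above them, so the groups overlapped. The means were 1.35% ± 0.47 in TSA cones and 1.70% ± 0.0169 in DMSO cones (SD, n = 3 each). Counting error was small beside this spread, since the 95% Wilson interval of the share in TSA replicate 1 was 1.03% to 1.04%. In bulk samples, fewer cells of a type and less RNA per cell cannot be told apart.

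TSA replicate 2 had a low share with few glial transcripts, as its Müller glia markers held 0.0768% of counts. TSA replicate 1 had a low share with 1.42% of counts in the same markers. Both libraries with a low share had the most genes over 1 CPM (10795 and 9100), while DMSO replicate 2 had nearly as many, 8837, with a share of 1.71%. Rod markers, like the members, had their lowest share in TSA replicate 1, but TSA replicate 2 was above DMSO replicate 3 in rod markers. The part of these measures in the shares was not tested.

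The large subunit and the small mitochondrial subunit moved with the members by library. Genes of the large cytosolic subunit held 1.29%, 1.39% and 2.19% of counts in TSA replicates 1 to 3, against 1.82%, 1.89% and 1.73% in DMSO replicates 1 to 3. Those of the small mitochondrial subunit held 0.532%, 0.564% and 0.854% in TSA replicates and 0.737%, 0.706% and 0.722% in DMSO replicates. In both families TSA replicates 1 and 2 were again the lowest libraries and TSA replicate 3 the highest. The large mitochondrial subunit differed, with 1.12%, 1.07% and 1.75% in TSA replicates 1 to 3, against 1.36%, 0.932% and 1.39% in DMSO replicates 1 to 3. There DMSO replicate 2 was the lowest library, though TSA replicate 3 was again the highest. Of the 48 genes tested in it, 21 had a log2 fold change below 0, against 49.1% of all genes tested. Its median was 0.16, against 0.02 for all genes tested. In the large cytosolic subunit 35 of 49 tested genes were below 0, with a median of -0.23. In the small mitochondrial subunit 17 of 27 were, with a median of -0.19.

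Relative to the large subunit, the small subunit was lower in each TSA library. The ratio of summed small to large subunit counts was 0.805, 0.808 and 0.863 in TSA replicates 1 to 3, against 0.934, 0.905 and 0.971 in DMSO replicates 1 to 3. These groups did not overlap. No test was run on this ratio, which is a score over genes chosen as a family.

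**Figure D2:**
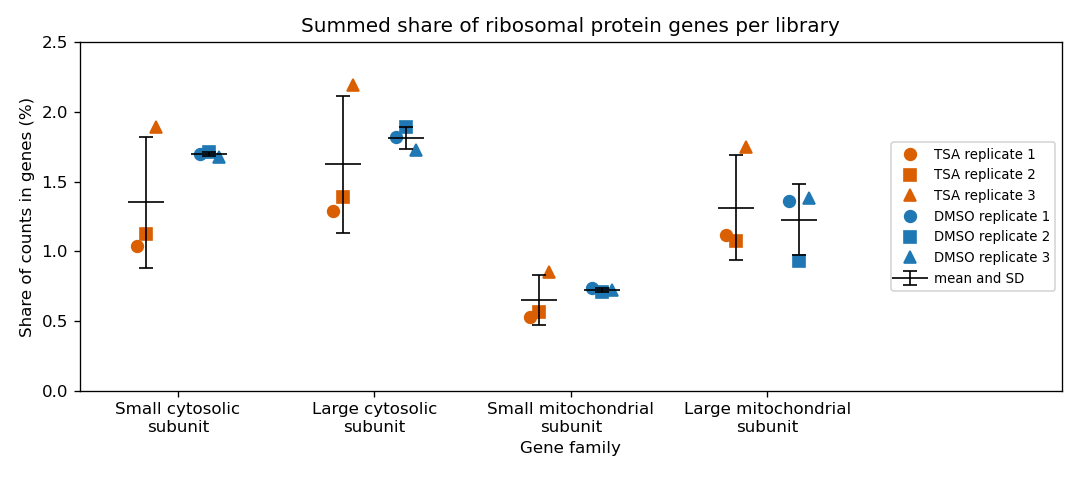
Share of all counts (%) held by the genes of the small and large cytosolic and the small and large mitochondrial ribosomal subunits in each library, with TSA in orange left of DMSO in blue and black bars for the mean and SD of 3 libraries. In the first 3 families the DMSO libraries lie close together, for example 1.68% to 1.71% for the small cytosolic subunit, with TSA replicates 1 and 2 below them and TSA replicate 3 above them, while in the large mitochondrial subunit DMSO replicate 2 is the lowest.

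Gene by gene, no member passed the test. The quasi-likelihood test of edgeR with Benjamini-Hochberg adjustment over 9621 genes called 0 members at an adjusted p under 0.05, and 0.00% of all genes tested. At an unadjusted p of 0.05 or less, 0 members were higher (8.02% of all genes tested) and 0 members were lower (2.30%). DESeq2 called 0 members at an adjusted p under 0.05, where it called 7.30% of genes as higher in TSA and 2.23% as lower. Limma-voom with quality weights also called 0 members after adjustment, against 0.385% of genes, although 9 members were lower at an unadjusted p up to 0.05, against 2.80% of genes in that fit.

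The estimates leaned to one side, as did, less far, those of the large cytosolic and small mitochondrial subunits. The log2 fold change of TSA over DMSO was below 0 for 27 of 33 members, against 49.1% of all genes tested and 56.1% of the 1970 genes at least as abundant as the lowest member. The median was -0.47 for the members, 0.02 for all genes tested and -0.10 for the abundant genes. When libraries were scaled by total counts in place of TMM, the median of all genes moved to 0.15 and that of the members to -0.31. The members then lay 0.45 below all genes on the log2 scale, and 0.49 below them with TMM. By voom the gap was -1.34, with a median of -0.76 for the members and of 0.58 for all genes, so that both medians had moved. The members share the libraries, and their number is no count of independent results.

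The lean lay in TSA replicates 1 and 2. Both lay below every DMSO library for 19 of 33 members, against 8.22% of all genes tested and 12.8% of the abundant genes. TSA replicate 3 lay above all DMSO libraries for 13 members, within them for 18 and below them for 2. Without TSA replicate 3, all 33 members were below 0 (54.0% of all genes) with a median of -0.90, and 6, among them Rps13, Rps14, Rps27l, Rps29 and Rps3, were lower at an unadjusted p up to 0.05, against 1.96% of genes in that fit, though the smallest adjusted p of a member was still 0.238 by edgeR. Without TSA replicate 1 the median was -0.13 and 20 members were below 0 (52.7% of all genes), and without TSA replicate 2 it was -0.20 with 24 below 0 (52.3% of all genes). The gap between the median of the members and that of all genes was then -0.06 without TSA replicate 1 and -0.13 without TSA replicate 2, against -0.77 without TSA replicate 3. Without DMSO replicate 1 the median was -0.23.

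The intervals were wide. The standard error of the log2 fold change had a median of 0.60 among the members and ranged between 0.39 and 1.73, while its median over all genes tested was 1.91. The 95% interval held 0 for all 33 members. It also reached -1, a fall by a factor of 2, for all 33, and reached 1, a rise by the same factor, for 16. For those 16 genes, a change by that factor in either direction lay within the interval.

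**Figure D3:**
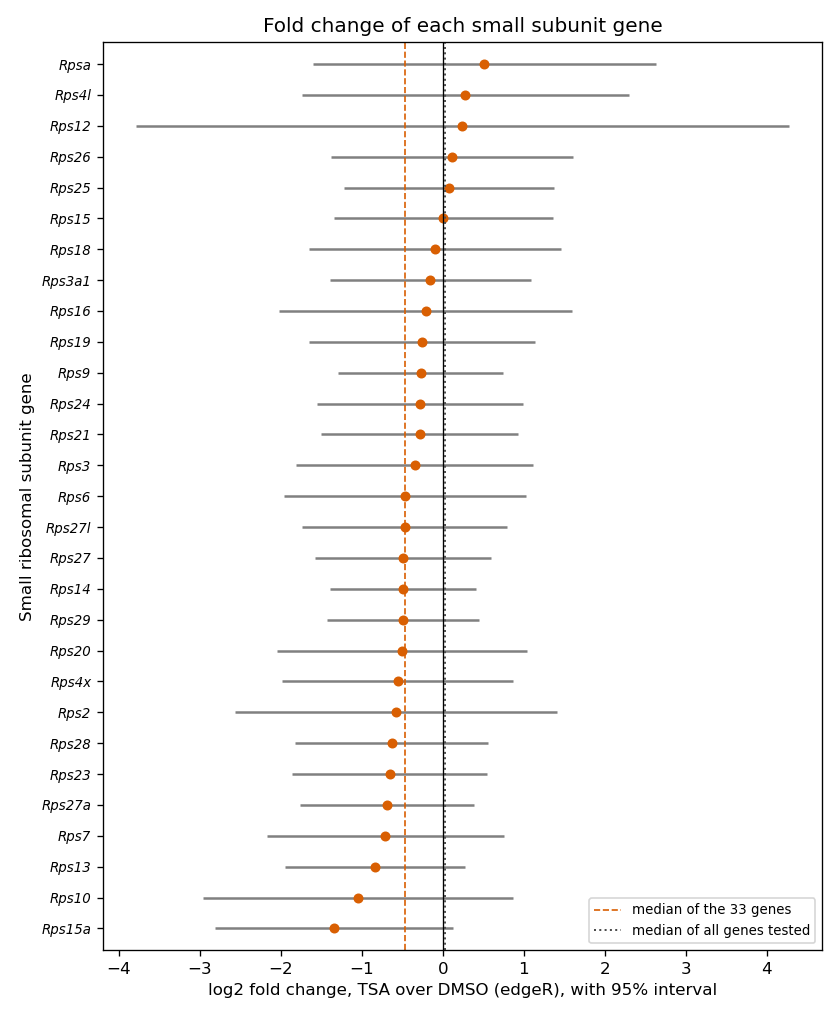
Log2 fold change of TSA over DMSO for 29 of the 33 genes (points, edgeR) with its 95% interval (grey lines), the median of the 33 genes (dashed, -0.47) and the median of all genes tested (dotted, 0.02). Of the 29 points, 23 lie below 0, and every interval crosses 0.

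By place in the subunit, 14 genes belong to the head, the lobe that moves during translocation, and 19 to the body and platform, where most of the decoding site and the mRNA exit lie. The 19 include Rps4l, placed there with its namesake Rps4x. Among head genes 11 of 14 had a fold change below 0, with a median of -0.23. Among body and platform genes 16 of 19 did, with a median of -0.49. TSA replicates 1 and 2 were below every DMSO library for 7 head genes and for 12 body and platform genes. Head genes summed to 0.420%, 0.459% and 0.836% of counts in TSA replicates 1 to 3, against 0.685%, 0.681% and 0.656% in DMSO replicates 1 to 3. Body and platform genes summed to 0.619%, 0.663% and 1.06% in TSA replicates, against 1.02%, 1.03% and 1.02% in DMSO replicates. In both parts, as in the whole, TSA replicates 1 and 2 were the lowest libraries and TSA replicate 3 the highest, while the order of the DMSO libraries differed. The difference between head and body was not tested.

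The 6 most abundant genes, Rps14, Rps27l, Rps29, Rps15 and Rps3 among them, held 41.5% to 50.4% of the members' counts in every library. Rps14, a platform protein near the mRNA exit, had the most counts in each library, its length not taken into account. It had 1344, 1396 and 3028 CPM in TSA replicates 1 to 3, against 2833, 2477 and 2777 CPM in DMSO replicates. TSA replicate 3 was above, and the other TSA libraries below, all DMSO libraries, for a log2 fold change of -0.49 ± 0.39 (SE) and an adjusted p of 1.00 by edgeR.

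Rps29, a small zinc-binding protein of the head, had 684, 876 and 1457 CPM in TSA replicates 1 to 3, against 1523, 1104 and 1623 CPM in DMSO replicates. Its log2 fold change was -0.49 ± 0.40. Rps15, a head protein needed for export of the maturing subunit from the nucleus, had 447, 624 and 1768 CPM in TSA replicates and 1199, 649 and 976 CPM in DMSO replicates, and its log2 fold change was 0.01 ± 0.58. For Rps15, TSA replicate 3 was the highest of all libraries, and the fold change without it was -0.86. The sign also turned with the scaling of DESeq2 (-0.05).

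Rps3, which lines the mRNA entry channel and also acts in DNA repair, had 340, 366 and 1399 CPM in TSA replicates 1 to 3, against 1119.6, 650 and 909 CPM in DMSO replicates. For Rps3 the highest and the 2 lowest of the 6 libraries were all TSA, and its fold change of -0.35 ± 0.63 became 0.02 without TSA replicate 1.

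The smallest p of any member was that of Rps15a, a body protein encoded on chromosome 7 (chr7:118104372-118116188, GRCm38). It had 97.0, 192 and 74.3 CPM in TSA replicates 1 to 3, against 260, 295 and 370 CPM in DMSO replicates. Here TSA replicate 3 was the lowest library, unlike in most members, and the groups did not overlap. The log2 fold change was -1.35 ± 0.63, with a 95% interval of -2.82 to 0.12, an unadjusted p of 0.0675 and an adjusted p of 0.563 by edgeR. Of its 75-base windows along the coding sequence, 34.2% were found in no other annotated transcript.

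Rps13, a body protein at the interface with the large subunit (chr7:116331505-116334195), was the other member whose groups did not overlap. It had 256, 212 and 435 CPM in TSA replicates 1 to 3, against 585, 560 and 464 CPM in DMSO replicates, and a log2 fold change of -0.83 ± 0.48 with an adjusted p of 0.780 by edgeR. With TMM scaling, 2 members thus lay wholly below in TSA, against 3.71% of all genes tested and 3.65% of the abundant ones, and 0 lay wholly above, against 6.37%. With scaling by total counts 4 lay wholly below, Rps7, Rps13 and Rps23 among them, against 3.07% of all genes tested, and 0 wholly above, against 7.56%, so that only Rps13 stood apart under both.

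Rps27a, made as a fusion with ubiquitin, had 390, 329 and 575 CPM in TSA replicates 1 to 3, against 620, 953 and 510 CPM in DMSO replicates (log2 fold change -0.69 ± 0.46). Rps10, a head protein, had 86.0, 50.0 and 80.9 CPM in TSA replicates and 177, 72.8 and 199 CPM in DMSO replicates (-1.05 ± 0.82). In both, 1 DMSO library lay inside the range of the TSA libraries, and their adjusted p values were 0.933 and 1.00 by edgeR.

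As a share of the members' own counts, only Rps7, which takes part in building the subunit, had groups that did not overlap. It made up 1.16%, 1.14% and 1.11% of the members' counts in TSA replicates 1 to 3, against 1.46%, 1.27% and 1.42% in DMSO replicates. By edgeR its log2 fold change was -0.71 ± 0.63 with an unadjusted p of 0.292, and its TMM-scaled CPM overlapped between groups. Rps7 was picked from 33 genes after values were seen, and how many would separate by chance was not tested. Of its 75-base windows along the coding sequence, 5.51% were found in no other annotated transcript.

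**Figure D4:**
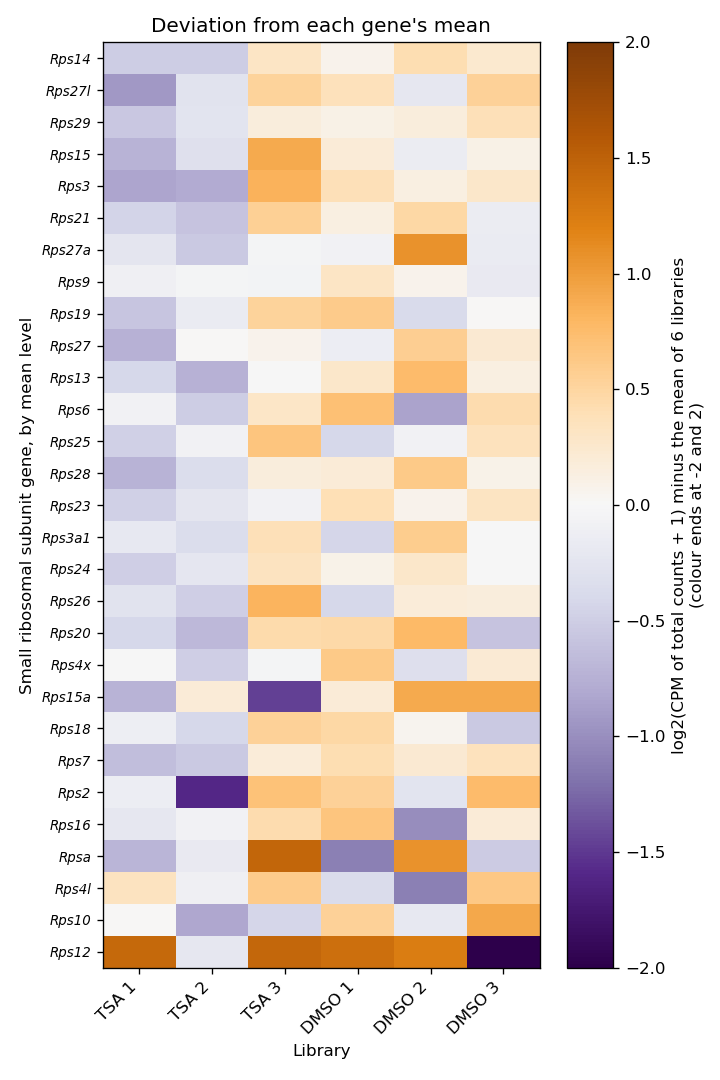
Deviation of 29 of the 33 genes (rows, by mean level) in each library (columns, TSA left of DMSO) from its mean over 6 libraries, in log2(CPM of total counts + 1), with purple below and orange above the mean and colours ending at -2 and 2. TSA replicates 1 and 2 are purple in most rows and TSA replicate 3 is orange in most, with Rps15a as the darkest exception, and the darkest cell is Rps12 in DMSO replicate 3.

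On the other side, 6 members had an estimate above 0, Rps15 and Rps4l among them. Rpsa, a body protein also known as the laminin receptor precursor, had 71.8, 108 and 417 CPM in TSA replicates 1 to 3, against 76.7, 241 and 101 CPM in DMSO replicates. Its log2 fold change of 0.51 ± 0.91 was -0.70 without TSA replicate 3. Rps26, which touches the mRNA near the exit, had 168, 149 and 459 CPM in TSA replicates and 215, 223 and 280 CPM in DMSO replicates, and its fold change of 0.11 ± 0.64 was -0.63 without TSA replicate 3.

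Rps25, which serves initiation at certain viral internal entry sites, had 231, 318 and 655 CPM in TSA replicates 1 to 3, against 341, 298 and 504 CPM in DMSO replicates (0.08 ± 0.56). Without TSA replicate 3 its log2 fold change was -0.51. In Rpsa, Rps26 and Rps25 TSA replicate 3 was thus the highest of the 6 libraries.

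Rps12 (chr10:23785183-23787275), a head protein, was nearly missing from a single library. It had 1415, 428 and 1435 counts in TSA replicates 1 to 3, against 1462, 902 and 1 in DMSO replicates. The 1 count in DMSO replicate 3, or 0.0896 CPM, stood among 12276489 counts. The log2 fold change of 0.24 ± 1.73 had the largest error of the members and was -0.44 without DMSO replicate 3. No 75-base window of its coding sequence was unique, as all 322 were also found in transcripts of other genes, 21 in number and 18 of them pseudogenes. The pseudogene Rps12-ps9 had 18, 10 and 17 counts in TSA replicates and 18, 19 and 0 in DMSO replicates. Rps12-ps19 had 24, 6 and 20 counts in TSA replicates and 10, 20 and 0 in DMSO replicates, so both rows were also at 0 in DMSO replicate 3. Rps12-ps1 was at 0 in DMSO replicates 2 and 3. A 0 was common in such rows. Of the 103 pseudogene rows of the family, 37 were at 0 in DMSO replicate 3 and 28 to 36 in the other libraries. Gaps like that of Rps12 itself were not rare in these libraries. Of 2062 genes with at least 400 counts in 5 libraries, 167 (8.10%) had at most 1 in the sixth, and Rps12 was the only member of the 33 among them.

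The other members described here lay between these. Rps23, Rps28, Rps2, Rps4x, Rps20, Rps27, Rps27l and Rps6 had log2 fold changes of -0.66 to -0.47. Rps3a1, Rps9, Rps16, Rps18, Rps19, Rps21 and Rps24 had values of -0.29 to -0.10, that of Rps18 turning to 0.01 when scaled by total counts. Among these are Rps6, the best known target of the S6 kinases, with 294, 226 and 482 CPM in TSA replicates 1 to 3, against 713, 165 and 509 CPM in DMSO replicates. Rps19, the gene most often mutated in human Diamond-Blackfan anaemia, had 252, 347 and 688 CPM in TSA replicates and 802, 278 and 461 CPM in DMSO replicates. DMSO replicate 2 was lower than 3 TSA libraries for Rps6 and lower than 2 of them for Rps19.

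The steadiest members over the 6 libraries were Rps9, Rps27 and Rps3a1, with coefficients of variation of 25.5%, 27.5% and 28.6%. Rps9, which lies at the mRNA entry, had 393, 426 and 522 CPM in TSA replicates 1 to 3, against 735, 430 and 456 CPM in DMSO replicates. Rps3a1 had 229, 212 and 437 CPM in TSA replicates and 273, 382 and 320 CPM in DMSO replicates. The least steady were Rpsa, at 80.6%, and Rps12, at 66.9%.

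Rps27 and Rps27l encode paralogous zinc-binding proteins with coding sequences of equal length, 252 bases without the stop codon, and Rps27l is known as a target of p53. Rps27l (chr9:66946086-66949516) had 563, 918 and 1971 CPM in TSA replicates 1 to 3, against 1957, 906 and 1917 CPM in DMSO replicates. Rps27 (chr3:90212522-90213651) had 234, 411 and 529 CPM in TSA replicates and 509, 568 and 569 CPM in DMSO replicates. Counts of Rps27l exceeded those of Rps27 by factors of 2.40, 2.24 and 3.72 in TSA replicates, against 3.84, 1.60 and 3.37 in DMSO replicates, so the paralogue was the higher of the pair in every library and the ratio overlapped between groups. No 75-base window of the Rps27 coding sequence was unique, while 73.0% of those of Rps27l were. One of the rows that share it, Rps27rt, had only 239 to 365 counts in TSA libraries and 253 to 370 in DMSO libraries. How reads with several matches were counted is not given in the sources used here, so the ratio of the pair is uncertain.

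Rps4x, X-linked and a body protein, and Rps4l are the other pair. Apart from Rps4l, the annotation classes all 32 genes as protein-coding. Rps4x had 196, 146 and 246 CPM in TSA replicates 1 to 3, against 429, 154 and 282 CPM in DMSO replicates. Rps4l had 113, 86.4 and 173 CPM in TSA replicates and 96.7, 39.8 and 171 CPM in DMSO replicates (log2 fold change 0.28 ± 0.87). Its counts relative to Rps4x were 0.578, 0.593 and 0.703 in TSA replicates, against 0.226, 0.259 and 0.608 in DMSO replicates, where the third DMSO library reached into the TSA range.

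Levels of different genes can be set side by side only per length. Per kilobase of coding sequence, Rps29 was the highest with 5987 CPM in TSA cones and 8433 CPM in DMSO cones, followed by Rps27l (4566 CPM in TSA, 6323 CPM in DMSO) and Rps14 (4244 CPM in TSA, 5951 CPM in DMSO). The lowest of the 32 coding genes on this scale were Rpsa (225 CPM per kilobase in TSA, 158 in DMSO) and Rps2 (157 in TSA, 234 in DMSO). A subunit holds at most 1 copy of each of these proteins, but the transcript values were far apart. The coding sequence of Rps29 has only 168 bases, and none of its 94 windows was unique, so its place is uncertain. Of the 33 genes, 24 had less than 50% of their windows unique (median 22.7%), and 2, Rps3 among them, shared none. Spearman's rho between the unique share and the level per kilobase was 0.21 over the 32 coding genes, which share their libraries. Fold changes of genes with shared windows may include reads of their copies, which was not tested. The 103 pseudogene rows of the family together held 0.0160% to 0.0231% of counts in TSA libraries and 0.0202% to 0.0205% in DMSO libraries.

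With and without the pyrimidine run at the start, the estimates overlapped. Of the 12 genes with a run 11 were below 0, with a median log2 fold change of -0.47, and of the 12 without one 8 were, with a median of -0.23. The values ranged between -1.35 and 0.11 with a run and between -0.83 and 0.51 without. Of the 9 genes without a matched start 8 were below 0, with a median of -0.49, so genes of unknown start leaned as far as those with a run. These differences were not tested. The run was sought only within 5 bases of a RefSeq start, so genes counted as without one may still carry a TOP motif. In the Rps12 line, for example, a pyrimidine run begins further from the start.

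Fau, whose product is cut into ubiquitin-like FUBI and a small subunit protein, and Rack1, a scaffold on the head, belong to the subunit but not to the symbol rule. Fau had 254, 197 and 598 CPM in TSA replicates 1 to 3, against 383, 199 and 303 CPM in DMSO replicates (log2 fold change 0.25 ± 0.61). Rack1 had 208, 401 and 340 CPM in TSA replicates and 341, 296 and 382 CPM in DMSO replicates (-0.10 ± 0.50). Neither passed the test, and both had adjusted p values of 1.00 by edgeR.

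Other factors build the 40S subunit in the nucleolus. Of their 62 listed rows 49 passed the filter, 30 with an estimate above 0 and 19 below, and a median log2 fold change of 0.46. By edgeR, 0 passed an adjusted p of 0.05. At an unadjusted p of 0.05 or less 6 were higher (Wdr36, Rrp9, Ddx52, Utp6, Utp14a and Rrp36) and 0 lower, against the 8.02% and 2.30% of all genes. All 6 passed the filter through the TSA libraries alone, so their direction was tied to how they entered the test. TSA replicates 1 and 2 had the most genes over 1 CPM (10795 and 9100). The part of this in the split and median of the list was not tested. Wdr36, a part of the processome that cleaves the rRNA precursor, had 495, 325 and 5 counts in TSA replicates 1 to 3, against 0, 2 and 1 in DMSO replicates. Rrp9 had 198, 142 and 0 counts in TSA replicates and 1, 0 and 0 in DMSO replicates. Ddx52, an RNA helicase, had 1682, 61 and 1209 counts in TSA replicates and 1, 15 and 0 in DMSO replicates. Utp6 had 118, 0 and 197 counts in TSA replicates and 1, 0 and 1 in DMSO replicates. In each of the 4, high counts stood in only some TSA libraries. The smallest adjusted p on the list was 0.405 by edgeR, which is also the smallest of all genes.

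Of the 8 rows of S6 kinases, 2 passed the filter. Rps6kb1, which phosphorylates Rps6 downstream of mTOR, had 322, 289 and 374 counts in TSA replicates 1 to 3, against 4, 289 and 690 in DMSO replicates. Rps6kb2 had 158, 156 and 0 counts in TSA replicates and 7, 772 and 3 in DMSO replicates. Both overlapped between groups, and neither passed the test.

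Of 20 listed regulators of ribosomal protein synthesis 16 passed the filter, 8 with an estimate above 0 and 8 below, and 0 reached an unadjusted p of 0.05 by edgeR. The 4 of smallest p were Mtor, Larp1, Polr1b and Rnf10. Mtor, the kinase itself, had 10, 3 and 2 counts in TSA replicates 1 to 3, against 101, 143 and 0 in DMSO replicates. Larp1, the protein that holds the cap of TOP mRNAs, had 1, 29 and 3 counts in TSA replicates and 1, 259 and 68 in DMSO replicates. Polr1b, a subunit of RNA polymerase I, had 130, 233 and 5 counts in TSA replicates and 5, 40 and 5 in DMSO replicates. Rnf10, a ubiquitin ligase of the small subunit, had 414, 134 and 140 counts in TSA replicates and 14, 18 and 113 in DMSO replicates. Of the 16 tested, only this 1 lay wholly above in TSA, against 6.37% of all genes tested. Its unadjusted p was 0.262 by edgeR. Mtor and Larp1 each had a DMSO library with at most 1 count, and their adjusted p values were 0.583 and 0.846 by edgeR.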

How the data were processed

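Single reads were trimmed by the authors before alignment to GRCm38, and their processing notes name STAR 2.5.4a, Subread 1.6.0 and edgeR 3.22.3. The deposited counts are whole, raw counts per gene, made from cDNA after 17 PCR cycles and 11 library cycles, without molecular identifiers, so intervals on shares cover counting error only. A second deposited table, which holds the authors' own comparison, was not used.

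Genes over 1 CPM in at least 2 libraries of 1 group were kept. TSA was compared with DMSO in edgeR 4.0.16 under R 4.3.3 (glmQLFit and glmQLFTest, TMM, two-sided), and p-values were adjusted by Benjamini-Hochberg across every gene kept. Log2 fold changes are TSA minus DMSO. DESeq2 1.42.0, limma 3.58.1 (voom), other scalings and filters, the replicate number as a block and each library left out were alternatives. The code was tested on simulated data. Gene types, positions and coding lengths are from GENCODE (GRCm38), where all 33 IDs matched. A window of 75 bases, the read length, was unique if no transcript of another gene held it.

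Values by library are given for the 6 most abundant members, the 5 of smallest p in each direction, the paralogue pairs, members under 10 counts in a library, the 3 steadiest, Fau, Rack1 and up to 4 genes of smallest p per list. Rps6, Rps7, Rps19 and the division into head and body were chosen after values were seen. Values of 4 members are not reported here, though sums and counts over the 33 include them. The members and lists were chosen with earlier results of these data known.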

Additional observations from a re-analysis of the deposited data

How the results depend on the processing

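No member was called at an adjusted p under 0.05, and none was higher at an unadjusted p of 0.05 or less, under any alternative run. Members lower at an unadjusted p up to 0.05 numbered 9 by limma-voom with quality weights (2.80% of all genes in that fit) and 0 to 6 when a library was left out (1.96% of all genes where it was 6), against 0 in the fit reported, for a cause that was not tested. The median log2 fold change of the members was -0.90 to -0.13 with a library left out, and the difference in summed share between TSA and DMSO was -0.617 to -0.191 percentage points. With the replicate number as a block the median was -0.46 and 0 members were called. Same-numbered libraries did not deviate together (correlations of -0.01, 0.07 and 0.03), so the numbers were not taken as pairs.

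Some estimates turned sign, and not only those near 0, as Rpsa was 0.51 and Rps3 -0.35 in the fit reported. Rps15 was -0.0500 with the size factors of DESeq2 and -0.0500 by DESeq2 itself, -0.68 by voom, -0.0227 with a filter of 10 counts and -0.20 with the block. Rps18 was 0.0291 with upper-quartile scaling and 0.00505 with total counts. By voom Rps25 was -0.36, Rps26 -0.43 and Rpsa -0.17, and with the block Rps25 was -0.0287 and Rps26 -0.0776. With 1 library left out, the ranges that crossed 0 among the 29 members named were -0.44 to 0.89 for Rps12, -0.86 to 0.39 for Rps15, -0.65 to 0.31 for Rps16, -0.63 to 0.30 for Rps18, -0.82 to 0.18 for Rps19, -0.51 to 0.40 for Rps25, -0.63 to 0.41 for Rps26, -1.38 to 0.0239 for Rps3, -0.60 to 0.0558 for Rps3a1, -0.15 to 0.77 for Rps4l and -0.70 to 1.12 for Rpsa. The causes were not tested.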
